A study of Mus musculus with 6 samples.

Results

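The ISG15 conjugation system was described here through 6 genes, Isg15, Uba7, Ube2l6, Herc6, Trim25 and Usp18, which encode the modifier, its E1 and E2 enzymes, its ligases and its deconjugating protease. They were found by gene symbol among 16894 listed genes, all 6 had a line, and all 6 were among the 14776 genes that passed the filter on low values (at least 0.5 CPM in at least 3 libraries). They were selected on their CPM in the same senescent and control libraries, with the difference between the groups already known, so their levels and differences are given as a description, without a test.

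ISG15 is a ubiquitin-like protein whose transcription is switched on by interferon. UBA7 activates it, UBE2L6 carries it, and a ligase, mainly HERC6 in the mouse, joins it to lysines of newly made proteins, while TRIM25 is a ligase for ubiquitin that has also been assigned ISG15 ligase activity. USP18 cuts ISG15 from its substrates and, apart from that activity, binds the interferon receptor subunit IFNAR2 and dampens interferon signaling.

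The cells were fibroadipogenic progenitors (FAPs), mesenchymal cells of skeletal muscle, isolated from male and female C57BL/6 mice 3 to 6 months old as the CD45-/CD31-/α7-integrin-/SCA-1+ fraction of a magnetic sort and cultured in 3% O2 with 20% serum and 10 ng/ml bFGF. Bulk RNA-seq was done on 3 libraries of control FAPs (labelled non-senescent) and 3 of senescent FAPs. The senescent cells had received 20 μM etoposide, a topoisomerase poison that breaks DNA, for 48 h and then 5 days in normal medium. What the control cells received in place of etoposide, whether animals were pooled and whether the 3 replicates of a group were separate cultures are not stated in the sources used here, so p values measure the spread between these libraries, which may be technical.

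Reads on genes ranged from 41412179 to 59912520 per library. Cdkn1a, which encodes the cell cycle inhibitor p21, was at 290 ± 40.5 CPM in control and 1038 ± 21.4 CPM in senescent FAPs, and the proliferation marker Mki67 at 158 ± 78.6 and 12.7 ± 5.49 CPM (SD, n = 3 each). All 8 FAP markers looked up (Pdgfra, Ly6a, Cd34, Dcn, Col1a1, Col3a1, Pdgfrb and Thy1) had values, and their summed level was 16996 to 36084 CPM in control and 10000 to 14867 CPM in senescent libraries. Col1a1, which fell from 15545 ± 5576 to 3116 ± 876 CPM (adjusted p = 0.00150), carried much of that sum, whereas Cd34 rose from 22.5 ± 3.97 to 70.1 ± 17.4 CPM (adjusted p = 6.99e-04), Dcn from 62.3 ± 33.6 to 197 ± 21.2 CPM (adjusted p = 0.00465) and Ly6a, which encodes SCA-1, from 372 ± 132 to 625 ± 76.0 CPM (adjusted p = 0.0393, with 0.0956, 0.0670 and 0.122 without senescent replicate 1, 2 or 3). Leukocyte markers were low but moved with the groups. The 6 of 11 that had values (Cd53, Itgam, Cd68, Csf1r, Laptm5 and Lyz2) summed to 10.9 to 13.9 CPM in control and 27.0 to 32.9 CPM in senescent libraries, 4 of the 5 tested were called higher, and 1 of the 4, Itgam, was listed at 0 in control replicates 2 and 3 and passed the filter only through the senescent libraries. Leukocytes express the ISG15 system too, and their part in the differences below was not tested. Ptprc, Adgre1, Tyrobp and Cd3e were not analysed here. Endothelial markers (4 of 5 with values, most of the sum from Tek) summed to 18.0 to 38.4 and 22.2 to 29.2 CPM, with Pecam1 called higher (0.89, adjusted p = 0.00897) and Kdr lower (-0.74, adjusted p = 0.00989). Myogenic markers (2 of 7 with values, Itga7 and Des) summed to 14.3 to 19.3 and 23.4 to 30.2 CPM without overlap, and Itga7 was called higher (0.83, adjusted p = 0.00771). The part of these cells in the differences below was not tested either.

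The 6 genes lie at separate places on 5 chromosomes (mm10, which is GRCm38; gene bodies from GENCODE M21). Isg15 occupies chr4:156199424-156200818 on the minus strand, and the other members are on the plus strand. Usp18 (chr6:121245906-121270917) and Herc6 (chr6:57581000-57664632) share a chromosome but are far apart. Ube2l6 lies at chr2:84798828-84810335, Uba7 at chr9:107975505-107984060 and Trim25 at chr11:88999376-89020293.

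The promoters of Isg15 and Uba7 are shown because they hold letters of interferon response elements, or of a shorter IRF element. A RefSeq window (GRCm38.p6) of 250 bases before and 50 bases after the annotated start was found for 5 of the 6 genes, the exception being Usp18. The 120 bases directly before the start are printed 5′ to 3′ on the strand of the gene, for Isg15 at chr4:156200819-156200938 (minus strand) and for Uba7 at chr9:107975447-107975566 (plus strand, partly inside the GENCODE gene body, which begins upstream of the RefSeq start). Capitals mark matches to GAAA-NN-GAAA in Isg15 and to AANNGAAA, read on the opposite strand, in Uba7.
Isg15: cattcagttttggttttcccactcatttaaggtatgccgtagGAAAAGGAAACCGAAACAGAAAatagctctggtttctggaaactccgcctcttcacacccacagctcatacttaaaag
Uba7: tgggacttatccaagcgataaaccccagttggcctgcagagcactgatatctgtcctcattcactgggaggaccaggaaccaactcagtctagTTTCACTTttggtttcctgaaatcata

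GAAA-NN-GAAA, the core of an interferon-stimulated response element, was searched on both strands and stood in 3.44% of 32851 RefSeq windows of 300 bases. The Isg15 window held 3 matches, which overlap each other and together run from 78 to 57 bases before the start. Only 5 of all windows (0.0152%) held 3 or more. The shorter AANNGAAA, with which every GAAA-NN-GAAA match overlaps, stood in 23.9% of windows and in 3 of the 5 members. Isg15 had 4 matches, 3 of them inside the run in capitals, Uba7 had 1 from 27 to 20 bases before the start, and Trim25 had 1 that began 4 bases before the start and crossed it. TTCNNNGAA, the gamma-activated sequence, stood in 8.3% of windows and in 0 of the 5 members. The windows of Ube2l6 and Herc6 held none of these letters. A match is a run of letters in a fixed window and was not measured as a binding site.

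**Figure D1:**
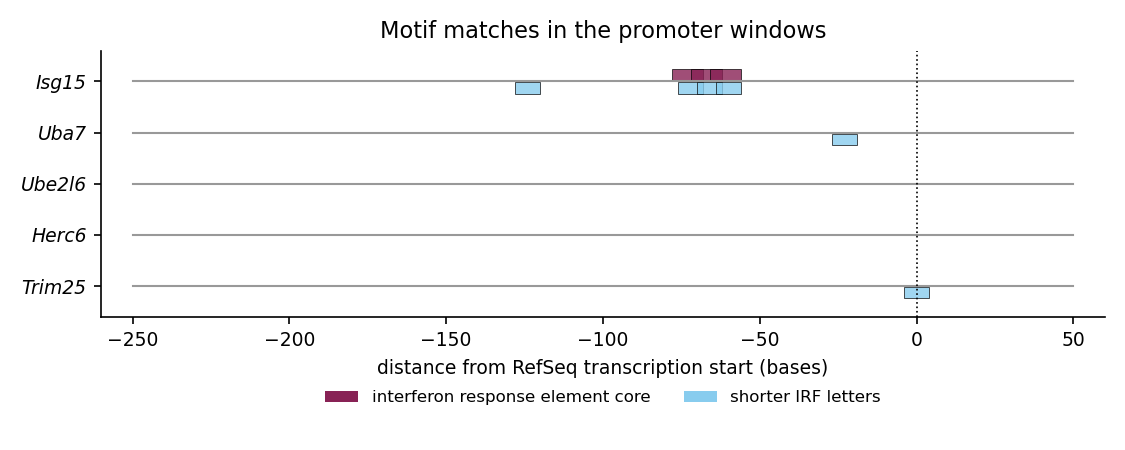
Matches to the interferon response element core (dark, above the line) and to the shorter IRF letters (light, below the line) in the RefSeq promoter windows of 5 genes; the x axis is the distance from the RefSeq start in bases, from 250 before to 50 after. Isg15 carries the 3 core matches, between 78 and 57 bases before the start, Uba7 and Trim25 carry 1 shorter match each, and Ube2l6 and Herc6 carry none.

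Levels are given in CPM as deposited, that is read counts relative to a library size that includes a scaling factor, and differences as log2 fold changes of log2(CPM + 0.5), senescent over control, with the standard error of a limma fit over all genes. All 6 genes were higher in every senescent library than in every control library. Over all genes tested, 26.5% had groups apart in that way. At a Benjamini-Hochberg adjusted p under 0.05, 21.8% of all genes tested were called higher and 24.3% lower, and at the threshold of the study (a log2 fold change of more than 1 with an unadjusted p below 0.01) 6.93% were higher and 3.9% lower. All 6 members were above the first limit and 5 above the second, all but Uba7, and since this contrast chose them nothing is read from these counts. Their median log2 fold change was 1.33, beside -0.03 over all genes, whose quartiles were -0.35 and 0.34. In bulk RNA, a change in the number of cells that express a gene and a change in RNA per cell cannot be told apart.

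Isg15, the modifier, was at 3.35, 3.29 and 4.47 CPM in control replicates 1, 2 and 3 and at 44.5, 51.7 and 54.0 CPM in senescent replicates 1, 2 and 3. The lowest senescent library stood 9.96 times above the highest control library, and these values rested on at least 150 and at most 249 reads per control library, against 2243 to 3093 per senescent library. The means were 3.70 ± 0.665 and 50.1 ± 4.96 CPM (SD, n = 3 each), a 13.5-fold ratio and a log2 fold change of 3.60 ± 0.14 (SE). Of the 50-base stretches of Isg15 transcripts, 3.96% also occur in AC151275.1. By size of log2 fold change Isg15 was number 14 of all 14776 genes.

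Usp18, the protease that removes ISG15, stood directly behind it as number 15. Its levels were 0.714, 1.24 and 1.90 CPM in control and 17.0, 20.6 and 21.3 CPM in senescent libraries, from 32, 65 and 106 reads and from 855, 1229 and 946 reads. The control libraries differed among themselves more for Usp18 than for any other member, with a coefficient of variation of 46.4%, but the gap between the groups was still 8.92 times. The ratio of means was 15.3, from 1.28 ± 0.596 to 19.6 ± 2.31 CPM (SD, n = 3 each), with a log2 fold change of 3.54 ± 0.25 (SE). At control levels this low the pseudocount holds the log2 value down, and with 0.1 in place of 0.5 it was 3.92, above Isg15 at 3.73. The order of Isg15 and Usp18 thus depended on the settings. Of the 50-base stretches of Usp18 transcripts, 2.81% also occur in Gm44148.

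Uba7, the E1 enzyme that uses ATP to activate ISG15, changed the least of the 6 genes. It was at 6.74, 4.41 and 6.05 CPM in control and 10.5, 11.9 and 9.77 CPM in senescent libraries. The lowest senescent library was 1.45 times the highest control library, and the log2 fold change was 0.86 ± 0.17 (SE), a 1.87-fold ratio of means. The last exons of Uba7 overlap Gm20661, a predicted gene on the same strand, which was at 0.435 ± 0.117 CPM in control and 1.24 ± 0.407 CPM in senescent FAPs. Of the 50-base stretches of Uba7 transcripts, 2.52% also occur in Gm20661, and how the counting divided such reads is not given in the sources used here.

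Ube2l6, the E2 enzyme that takes ISG15 over from UBA7, was at 13.1, 7.05 and 15.2 CPM in control and 23.4, 26.3 and 27.9 CPM in senescent libraries. Control replicate 2 was well below the other two controls, and the lowest senescent library was 1.53 times the highest control. The log2 fold change was 1.16 ± 0.26 (SE), with a 2.19-fold ratio of means, and without control replicate 2 it was 0.84. Of the 50-base stretches of Ube2l6 transcripts, 9.45% also occur in 9 other genes, 5.82% in Gm17167, so its reads are uncertain to that extent.

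Herc6, the main ISG15 ligase of the mouse, was the next most changed gene after Isg15 and Usp18. It was at 2.25, 3.56 and 2.71 CPM in control and 7.57, 8.82 and 10.3 CPM in senescent libraries, with no overlap and a gap of 2.13 times. The means of 2.84 ± 0.661 and 8.90 ± 1.37 CPM (SD, n = 3 each) gave a 3.13-fold ratio and a log2 fold change of 1.50 ± 0.19 (SE). The gene overlaps Gm45193, a processed transcript on the same strand. Of the 50-base stretches of Herc6 transcripts, 12.9% also occur in 417 other genes, 12.0% in Gm45193, so the Herc6 reads are uncertain to that extent.

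Trim25, whose protein is best known for joining ubiquitin to the RNA sensor RIG-I, had the least relative spread of the 6 genes in both groups. It was at 22.4, 17.3 and 24.6 CPM in control and 43.9, 48.2 and 42.7 CPM in senescent libraries. The log2 fold change was 1.06 ± 0.13 (SE) and the ratio of means 2.09, with 1.73 times between the nearest libraries of the groups.

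**Figure D2:**
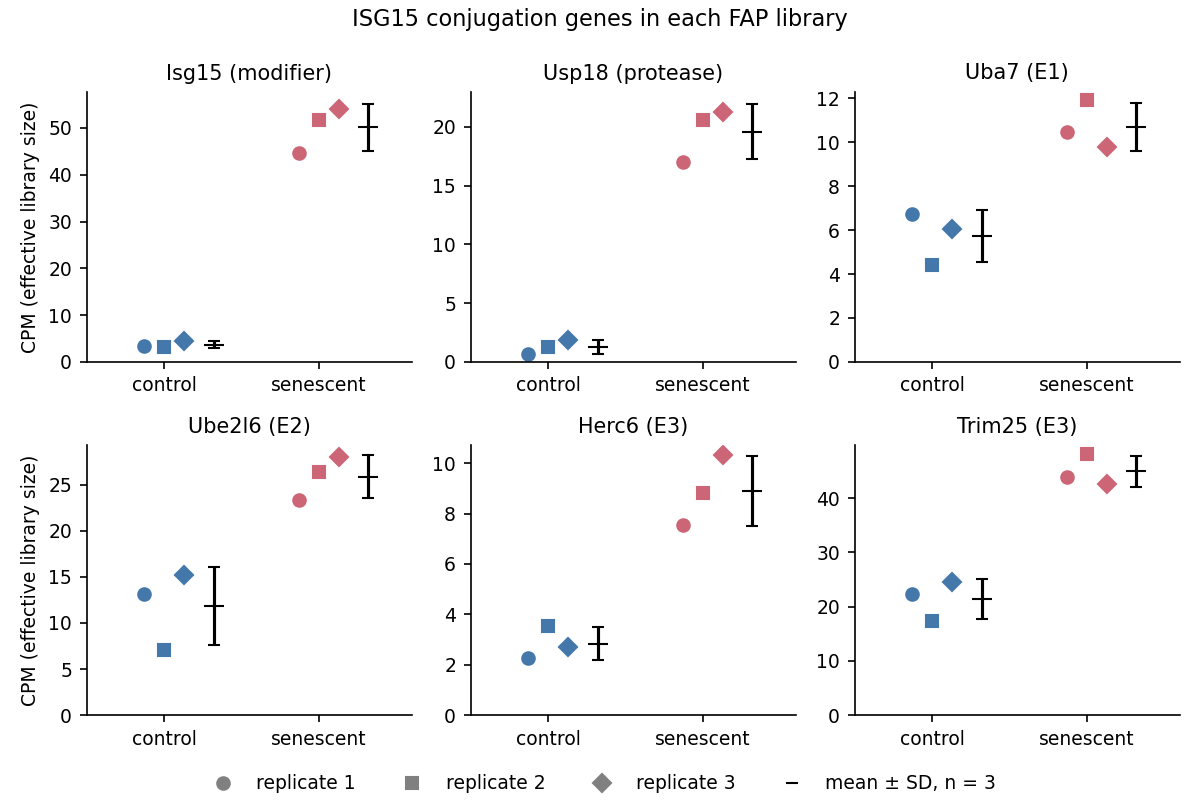
CPM of the 6 genes in each library (y axis, from 0, with a separate scale for each gene), control in blue and senescent in red, with replicate 1 as circle, 2 as square and 3 as diamond and the mean ± SD (n = 3) beside them in black. Every senescent library lies above every control library for each gene, with the widest gaps for Isg15 (9.96 times) and Usp18 (8.92 times) and the narrowest for Uba7 (1.45 times).

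The members did not share one order of libraries within the control group. Control replicate 2 was the lowest library for Isg15, Ube2l6, Uba7 and Trim25 and the highest for Herc6, and control replicate 3 was the highest for Isg15, Usp18, Ube2l6 and Trim25. Among senescent libraries, replicate 1 was lowest and replicate 3 highest for Isg15, Usp18, Ube2l6 and Herc6, whereas replicate 3 was lowest and replicate 2 highest for Uba7 and Trim25. The coefficient of variation was 17.4% to 46.4% in control and 6.49% to 15.4% in senescent libraries. Between libraries of the same replicate number, the log2 difference was 3.46 to 3.79 for Isg15, 3.18 to 3.85 for Usp18, 1.20 to 1.75 for Herc6, 0.81 to 1.83 for Ube2l6, 0.78 to 1.45 for Trim25 and 0.60 to 1.34 for Uba7. For Isg15, Ube2l6, Trim25 and Uba7 the widest of these differences was in pair 2, where the control was lowest.

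Together the 6 genes summed to 48.6, 36.9 and 55.0 CPM in control and 147, 168 and 166 CPM in senescent libraries. Isg15 supplied 6.88% to 8.92% of the reads of the 6 genes in control and 30.3% to 32.6% in senescent libraries. The share of the modifier in these reads was thus higher in every senescent library than in every control library.

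Levels of different genes were compared per length, as CPM per kb of the gene's merged exons. On this scale control FAPs had Ube2l6 first at 7.57 ± 2.73, then Isg15 at 4.90 ± 0.880, Trim25 at 3.73 ± 0.648, Uba7 at 1.79 ± 0.374, Usp18 at 0.725 ± 0.336 and Herc6 at 0.596 ± 0.139 CPM per kb (SD, n = 3). The ranges of Ube2l6 and Isg15 overlapped, as did those of Usp18 and Herc6, so the order inside these pairs is not beyond the spread between libraries. Within a library, Ube2l6 was above Isg15 in 3 of 3 controls, and Usp18 above Herc6 in 1 of 3. In senescent FAPs Isg15 came first at 66.3 ± 6.56, followed by Ube2l6 at 16.6 ± 1.49, Usp18 at 11.1 ± 1.30, Trim25 at 7.81 ± 0.506, Uba7 at 3.35 ± 0.343 and Herc6 at 1.87 ± 0.288 CPM per kb (SD, n = 3). No neighbours in that order overlapped. Usp18 moved up past Uba7 and Trim25.

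**Figure D3:**
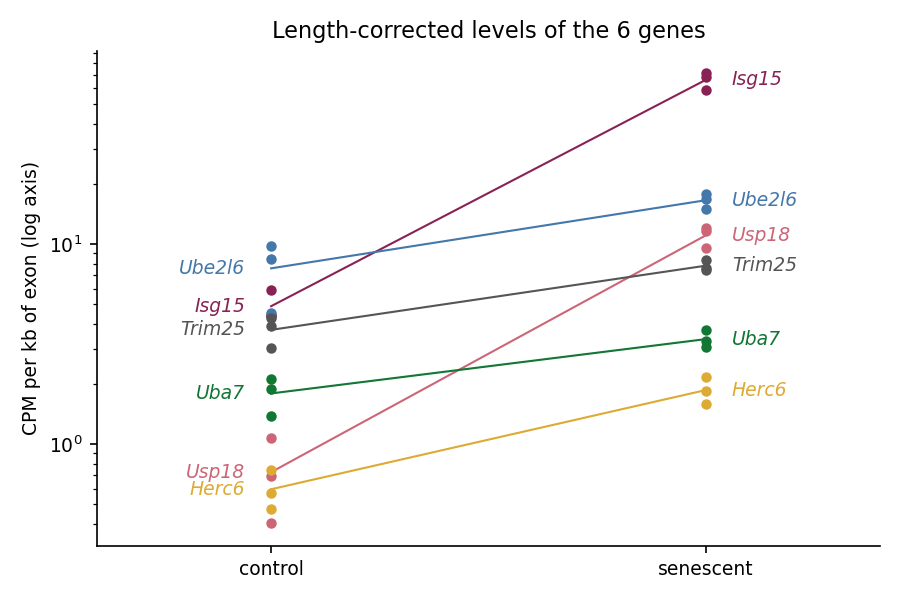
CPM per kb of exon on a log axis for the 6 genes in control and senescent FAPs, with a point per library and a line of the gene's color joining the group means. Isg15 rises steeply past Ube2l6, from 4.90 to 66.3 CPM per kb, and Usp18 past Uba7 and Trim25, from 0.725 to 11.1 CPM per kb. Ube2l6, Trim25, Uba7 and Herc6 keep their order among themselves.

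The ratio of protease to modifier transcripts overlapped between the groups. Usp18 over Isg15, per kb in the same library, was 0.0911, 0.160 and 0.182 in control and 0.163, 0.170 and 0.168 in senescent libraries. The conjugating enzymes fell behind the modifier. Ube2l6 over Isg15 was 1.53 ± 0.444 in control and 0.250 ± 0.00382 in senescent FAPs, Uba7 over Isg15 was 0.371 ± 0.0910 and 0.0509 ± 0.00711, and Herc6 over Isg15 was 0.125 ± 0.0407 and 0.0281 ± 0.00188 (SD, n = 3 each). The protease gained on the enzymes that oppose it, with Usp18 over Uba7 at 0.421 ± 0.202 in control and 3.32 ± 0.535 in senescent FAPs and Usp18 over Herc6 at 1.23 ± 0.576 and 5.96 ± 0.366 (SD, n = 3 each). Within the cascade the balance of E2 to E1, Ube2l6 over Uba7, was 4.14 ± 0.951 and 4.99 ± 0.759 with overlapping libraries.

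Several ISG15 genes have a close relative that works with ubiquitin. Ube2l3, the nearest relative of Ube2l6, was at 20.8 ± 1.90 CPM per kb in control and 21.6 ± 1.47 CPM per kb in senescent FAPs, so Ube2l6 over Ube2l3 went from 0.373 ± 0.157 to 0.766 ± 0.0319. Uba1, the E1 enzyme of ubiquitin, was at 128 ± 0.714 and 127 ± 1.92 CPM per kb, and Uba7 over Uba1 went from 0.0140 ± 0.00293 to 0.0264 ± 0.00290 (SD, n = 3 each). Even in senescent cells the E1 transcripts for ISG15 were a small fraction of those for ubiquitin.

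Each member was then placed in its gene family. Isg15 had the largest log2 fold change of 18 ubiquitin-like modifier genes, Uba7 of 10 E1 genes, Ube2l6 of 31 Ube2 genes, Herc6 of 5 Herc genes and Usp18 of 44 Usp genes, while Trim25 was number 9 of 42 Trim genes. These ranks are a description of genes chosen for their rise, and each was the same under the 3 other scalings tried. The values of the other family members carry the tests that follow, all from the limma fit. Counts in these families and in the gene groups below are read beside all 14776 genes tested. Of those, 21.8% were called higher and 24.3% lower, or 4992 and 1929 genes under library totals.

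Among the other 17 modifiers, 5 rose and 4 fell, or 7 and 2 when the values were scaled by library totals alone. The largest rises were of Gabarapl1, 0.83 ± 0.10 (SE, adjusted p = 7.03e-04), and Map1lc3b, 0.65 ± 0.08 (adjusted p = 8.38e-04), both ATG8 proteins of autophagy, and Sumo2 fell by 0.69 ± 0.11 (adjusted p = 0.00246). Among the other 9 E1 genes Atg7, which activates ATG8 and ATG12, rose by 0.64 (adjusted p = 0.00104), and Uba2 and Sae1, the subunits of the SUMO E1, were lower. In numbers, 1 rose and 3 fell, or 2 and 1 under library totals. Among the other 30 Ube2 genes, 2 rose and 5 fell, or 7 and 3 under library totals. Ube2h rose by 0.61 (adjusted p = 7.78e-04), and Ube2c and Ube2s, the E2 enzymes of the anaphase-promoting complex, fell by 3.01 (adjusted p = 8.38e-04) and 1.13 (adjusted p = 0.00259).

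Herc3, a small Herc protein like Herc6, rose by 0.89 ± 0.15 (SE, adjusted p = 0.00315), and Herc1, Herc2 and Herc4 were not called. Of the other 41 Trim genes, 17 rose and 5 fell, or 22 and 3 under library totals, and 2 of the 17 were below 0.5 CPM in every control library. The largest rises were of Trim30a, 3.14 ± 0.20 (SE, adjusted p = 1.21e-04), and Trim30d, 2.45 ± 0.22 (adjusted p = 3.07e-04), and Trim12a rose by 1.48 (adjusted p = 2.79e-04). These 3 belong to a cluster of close copies, so the split of reads between them is uncertain. Trim7 rose by 1.55 ± 0.11 (SE, adjusted p = 1.68e-04).

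Of the other 43 Usp genes, 7 rose and 11 fell, or 13 and 8 under library totals. The smallest p values were of falls, with Usp10 at -0.90 (adjusted p = 2.46e-04), Usp1, a deubiquitinase of PCNA and the Fanconi pathway, at -1.32 (adjusted p = 3.03e-04), and Usp37 at -0.73 (adjusted p = 0.00131). The largest rise was of Usp2, one of the proteases that can also cut ISG15, at 1.19 ± 0.37 (SE, adjusted p = 0.0329). That call was lost without control replicate 3 (adjusted p = 0.0808) or without senescent replicate 1 (0.0929), 2 (0.0883) or 3 (0.0666).

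**Figure D4:**
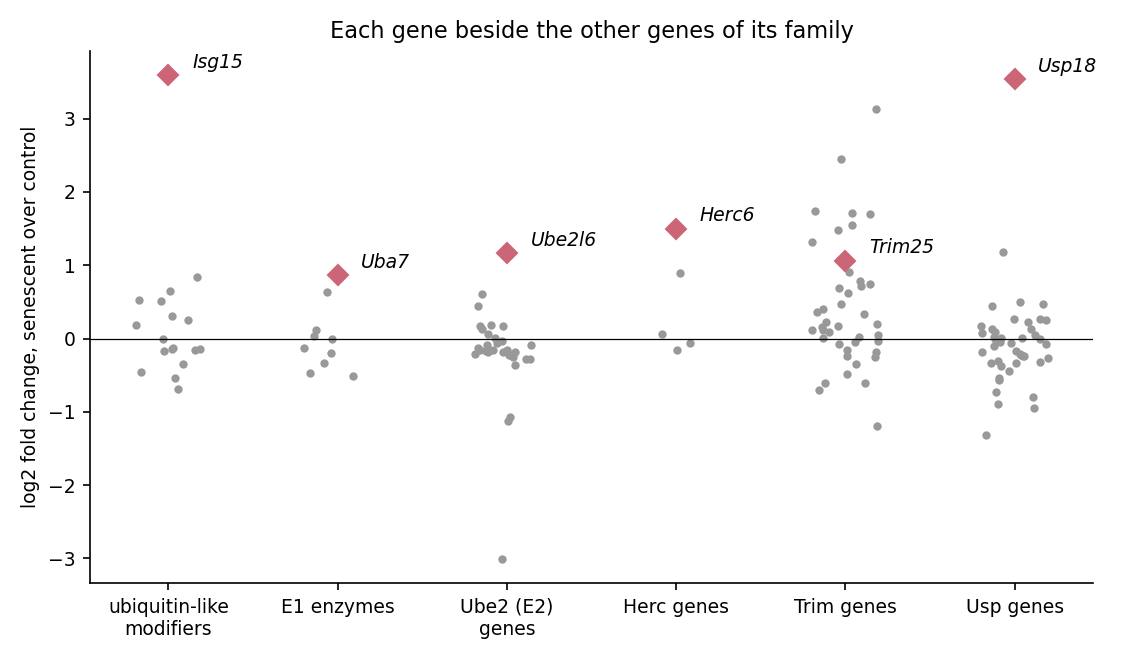
Log2 fold change, senescent over control (y axis), of each ISG15 gene (red diamond) and of the other tested genes of its family (gray points, spread sideways for legibility). Isg15 at 3.60 and Usp18 at 3.54 stand far above their families, Herc6, Ube2l6 and Uba7 top theirs by less, and Trim25 at 1.06 is exceeded by 8 Trim genes.

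Few genes of the other ubiquitin-like systems rose. Of 68 genes tested in 6 systems, 8 (11.8%) rose and 15 (22.1%) fell, beside 21.8% and 24.3% of all genes. Under library totals alone 19 rose and 7 fell. The calls over all 14776 genes shifted the same way, from 3218 higher and 3592 lower to 4992 and 1929. Their median was -0.14 and their range ran from -0.83 (Atg4d) to 0.83 (Gabarapl1). Uba7, the least changed ISG15 gene, was at 0.86, and this small margin turned in some fits, for example without control replicate 2, with Gabarapl1 at 0.74 and Uba7 at 0.70. The 7 risers of the ATG8 and ATG12 systems made up nearly all of the rises. They included Gabarapl1, Map1lc3b and Atg7, and 1 of those 15 genes fell, the protease gene Atg4d.

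In the ubiquitin core, 1 of 11 genes rose and 3 fell, or 3 and 1 under library totals or quantile normalization. The polyubiquitin gene Ubb rose by 0.31 (adjusted p = 0.0187), a call lost without control replicate 3 (0.0587), senescent replicate 1 (0.0519) or senescent replicate 2 (0.0604). The fusion gene Rps27a fell by 0.54 (adjusted p = 0.00315), as did Ube2n by 0.28 (adjusted p = 0.0195), the latter not past the limit without control replicate 3 (0.0528), senescent replicate 1 (0.0548) or senescent replicate 2 (0.0753). In the SUMO system 0 of 18 rose and 5 fell, Sumo2, Uba2 and Sae1 among them, with Uba2 at -0.51 (adjusted p = 0.00335) and Sae1 at -0.47 (adjusted p = 0.00682). Under library totals the SUMO count was 2 and 2.

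In the NEDD8 system 0 of 12 rose and 3 fell, or 2 and 2 under library totals. These were the ring subunit gene Rnf7, at -0.42 (adjusted p = 0.00230), and 2 cofactors of the NEDD8 ligase, Dcun1d5 at -0.47 (adjusted p = 0.00359) and Dcun1d1 at -0.25 (adjusted p = 0.0408). The Dcun1d1 call was lost with the replicate number as a block (0.0505) and in 5 of the 6 fits that left out a library (0.0695 to 0.144). It was also lost with median-of-ratios scaling (0.0524), library totals (0.710), quantile normalization (0.0996), edgeR's quasi-likelihood test (0.0570) and DESeq2 (0.0614). In the UFM1 system 2 of 8 genes fell, Ufsp2 among them at -0.38 (adjusted p = 0.00686), whereas under library totals 2 rose and 0 fell. In the URM1 system 1 of 4 genes fell, Ctu2 at -0.57 (adjusted p = 0.00792).

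**Figure D5:**
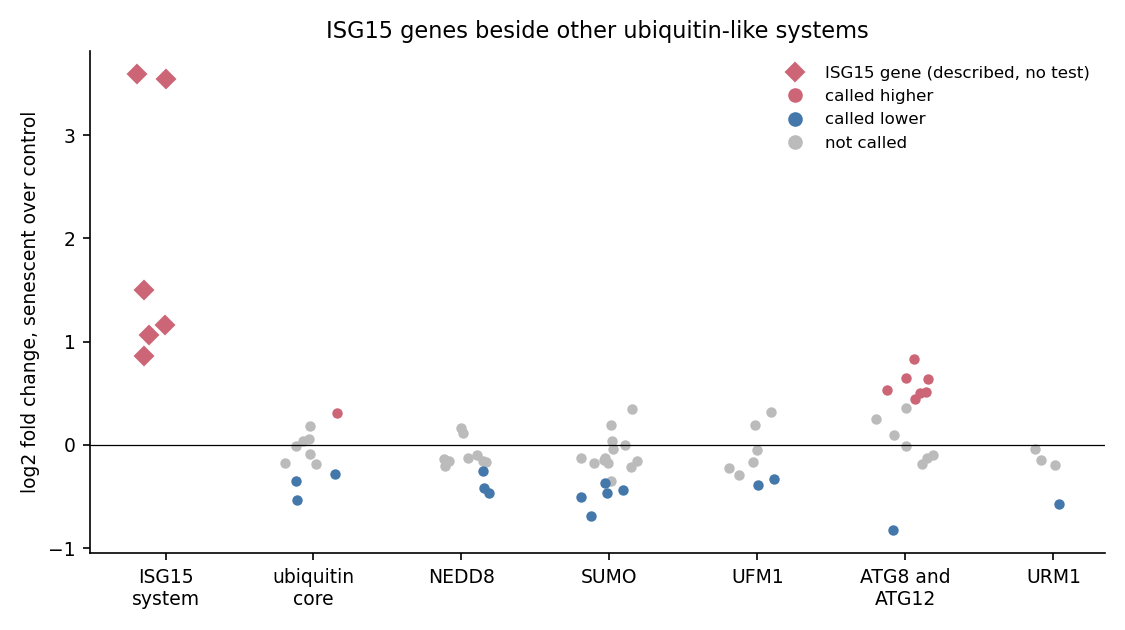
Log2 fold change, senescent over control (y axis), of the 6 ISG15 genes (red diamonds, no test) beside the genes of 6 other ubiquitin-like systems, where red points are called higher, blue points called lower and gray points not called. The ISG15 genes lie between 0.86 and 3.60, and none of the 68 others exceeds 0.83.

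Of 11 genes for proteins that act on ISG15 outside the core cascade, 3 (27.3%) were higher and 3 (27.3%) lower, or 4 and 2 under library totals. These shares are near the 21.8% and 24.3% of all genes. Itgb2, the leukocyte integrin chain of the LFA-1 receptor that binds secreted ISG15, was at 0.785 ± 0.264 CPM in control and 2.36 ± 0.569 CPM in senescent FAPs (log2 fold change 1.16, adjusted p = 0.00458), and it is itself a leukocyte gene. Sqstm1, whose protein p62 binds ISGylated proteins, rose by 0.81 ± 0.10 (SE, adjusted p = 8.94e-04). Skp2, whose protein marks USP18 for degradation, fell by 1.44 ± 0.13 on the log2 scale, from 21.5 ± 1.45 to 7.65 ± 1.14 CPM (adjusted p = 3.12e-04).

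Among 12 genes of the interferon signaling upstream of Isg15, inhibitors such as Socs1 included, 4 rose and 1 fell, or 7 and 0 under library totals. Irf7, a factor that drives interferon genes and is itself interferon-induced, went from 2.46 ± 0.965 to 27.6 ± 5.86 CPM, a log2 fold change of 3.28 ± 0.25 (SE, adjusted p = 1.98e-04). Stat2 and Irf9, which encode factors of the complex that binds the response element, rose by 1.34 ± 0.16 (adjusted p = 6.60e-04) and 1.22 ± 0.19 (adjusted p = 0.00206). The receptor subunit gene Ifnar1 fell by 0.36 ± 0.08 (adjusted p = 0.00812, or 0.142 under library totals), and Ifnar2, whose product USP18 binds, was at 34.7 ± 4.35 and 38.1 ± 2.84 CPM and was not called. The 21 interferon ligand genes looked up were not analysed here.

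Of 21 genes whose proteins are known substrates of ISG15, 8 rose and 4 fell, or 13 and 1 under library totals, and 1 of the 8, Mx1, was below 0.5 CPM in every control library. Ifit3 and Ifit1, which encode interferon-induced proteins, rose by 4.44 ± 0.13 and 4.35 ± 0.13 (SE, adjusted p = 1.05e-05 for each), more than Isg15. Ddx58, which encodes RIG-I, rose by 1.42 ± 0.09 (adjusted p = 1.31e-04). Pcna, the sliding clamp of DNA replication, fell by 1.10 ± 0.11 (adjusted p = 3.65e-04). The RNA data do not show whether any of these proteins carried ISG15.

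The genes next to the members were mixed. Of the 12 nearest tested genes that do not overlap a member, 1 on each side of each and 1.936 to 72.159 kb away, 4 were called higher, 2 lower and 6 not called, with 6 and 1 called under library totals. Of the 4, 2 were below 0.5 CPM in every control library. Agrn, 1.936 kb from Isg15, rose by 0.84 ± 0.10 (SE, adjusted p = 7.62e-04), and Ppm1k beside Herc6 by 0.69 (adjusted p = 0.0181, or 0.0653 without senescent replicate 3). AW011738 on the other side of Isg15, at 0.156 to 0.399 CPM in control and 0.655 to 0.987 CPM in senescent libraries, and Tuba8 beside Usp18, at 0.305 to 0.418 and 0.765 to 1.00 CPM, passed the filter only through the group where they are high, so their calls carry no weight, and both were lost with quantile normalization (adjusted p = 0.129 and 0.0916). Traip, a ubiquitin ligase gene of replication forks 3.235 kb from Uba7, fell by 1.85 ± 0.22 (adjusted p = 6.90e-04).

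Timm10 beside Ube2l6 was at -0.39 (adjusted p = 0.0434), a call lost in 5 of the 6 fits that left out a library (adjusted p = 0.0624 to 0.125). Serping1, on the other side of Ube2l6, was at 0.77 with adjusted p = 0.0917, and 0.0163 with the replicate number as a block. Like Ube2l6 it was lowest in control replicate 2, at 133 CPM beside 301 and 347 CPM in the other controls. Slc6a12 beside Usp18 was at -0.26 (adjusted p = 0.590), or -0.73 (adjusted p = 0.00573) without control replicate 2.

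The 5 genes whose profile over the 6 libraries was most like the mean profile of the members, by root mean square distance of centered log2 values, were Dcxr (distance 0.0774), Hist2h3c2 (0.0921), Hyal1 (0.0978), Cdkn1a (0.103) and Il15 (0.106). Their log2 fold changes were 1.80 to 2.07, between those of Herc6 and Usp18. The members themselves were farther from that mean, at 0.338 for Herc6 to 0.826 for Usp18. Likeness to the mean is therefore not likeness to any single member. Isg15 and Usp18 were nearest to each other among the members (0.196), and Uba7 and Trim25 were nearest to each other (0.132), while Herc6 was 0.393 from the closest member, Trim25. Genes outside the system were nearer than the closest member in each case, 2 for Isg15, 3 for Usp18, 38 for Ube2l6, 48 for Uba7, 52 for Trim25 and 1060 for Herc6.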

How the data were processed

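Bulk RNA-seq libraries of 3 control and 3 senescent FAP samples, grouped by their labels, had been prepared with a stranded mRNA kit. Per the submitters' processing notes, the build was mm10 and the tools were edgeR 3.10 and R 3.6.0. The aligner, counter and annotation are not given in the sources used here. The deposited signal is CPM of the effective library size (total times scaling factor, 0.917 to 0.940 in control and 1.07 to 1.09 in senescent libraries) as the authors computed it, with replicates not pooled. CPM of the plain total had been assumed, and the same test was kept. Whole reads were recovered for 100% of values (tolerance 0.01 reads). A line that names no gene, 0.00409% to 0.00699% of reads, was left out.

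limma 3.58.1 (R 4.3.3) was fitted to log2(CPM + 0.5) of 14776 genes with a variance trend and two-sided tests, with Benjamini-Hochberg adjustment over all of them. The code was tested on simulated data. Replicates of a group differed by a chi-square of 15.1 to 162 per gene, so none was a repeat. Deviations from group means of same-numbered libraries correlated at 0.54, 0.31 and 0.21 across genes, all over 0.1, so the numbers were taken to pair the libraries, and a fit with the replicate number as a block was an alternative. Control 2 with senescent 3 was also over 0.1, at 0.15, and the remaining unlike-numbered pairs were at -0.36 to -0.03. The limit of 0.1 thus did not single out same-numbered libraries. The pairing comes from these data, not from a statement in the labels. Others were another pseudocount, filter or scaling, leaving out each library, and edgeR 4.0.16 and DESeq2 1.42.0 on recovered reads.

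The members and lists were chosen with earlier results of these data known. Genes named were the members, the 3 smallest p values of each list and genes a sentence turns on, the nearest tested neighbours, the 5 most similar profiles, near-identical copies, markers, Cdkn1a and Mki67. Some genes under this rule are counted but not reported here by name. Positions and exon lengths come from GENCODE M21, promoters from RefSeq.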

Additional observations from a re-analysis of the deposited data

How the results depend on the processing

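The members were chosen on this contrast in these same libraries, so their calls under other settings are a description and give no support. All 6 members stayed above the adjusted limit under each of the 16 alternatives, and of their 96 alternative log2 fold changes 90 moved by less than the spread between replicates. Those that moved by more were Isg15 with library totals (3.80) and DESeq2 (3.79), Usp18 with a pseudocount of 0.1 (3.92), edgeR's quasi-likelihood test (3.94) and DESeq2 (3.96), and Trim25 with library totals (1.27). Leaving out each library in turn gave 3.53 to 3.72 for Isg15, 3.29 to 3.79 for Usp18, 0.84 to 1.37 for Ube2l6, 0.70 to 0.98 for Uba7, 1.37 to 1.65 for Herc6 and 0.92 to 1.17 for Trim25. The members past the threshold of the study numbered 3 to 5 in these fits, with 3 without control replicate 2 (Ube2l6 0.84, Uba7 0.70, Trim25 0.92), and 6 with library totals.

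Scaling by library totals alone moved the median of all genes from -0.03 to 0.17 and the share of calls that were higher from 47.3% to 72.1%. The 3218 genes higher and 3592 lower became 4992 and 1929, the listed companion genes 82 and 23 in place of 48 and 41, and the other ubiquitin-like systems 19 and 7 in place of 8 and 15. Without senescent replicate 2, 2130 genes were higher and 2416 lower, and over all such fits 2130 to 3405 and 2416 to 3875. Of the neighbours, 2 were higher with a filter at 2 CPM, which left 10 tested and dropped AW011738 and Tuba8. The number lower was 1 with median-of-ratios scaling, library totals, quantile normalization or edgeR, and 1 to 2 when a library was left out.

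Among 82 other genes, signs reversed for Coil without senescent replicate 3 (-0.0095, with -0.0095 to 0.31 over the libraries left out), for Herc2 with library totals (0.15) and quantile normalization (0.040), for Herc4 (0.058), Mocs3 (0.0033) and Urm1 (0.065) with library totals, for Col3a1 (0.27) and Pdgfrb (0.0078) with quantile normalization, and for Uba1 with median-of-ratios scaling (0.0081), library totals (0.20), quantile normalization (0.23), edgeR (0.016) and DESeq2 (0.028). Of their 1305 values, 1227 kept sign and call. Leaving out a library also turned the sign of Des (-0.092 to 0.94), Herc1 (-0.031 to 0.15), Pdgfra (-0.054 to 0.40), Tek (-0.12 to 0.59) and Thy1 (-0.57 to 1.54), lowest without control replicate 2 for Des, Pdgfra and Tek, control replicate 1 for Herc1 and senescent replicate 1 for Thy1. The cause was not tested. Among these genes and the members, the replicate block changed the calls of Dcun1d1, Serping1 and Thy1 (adjusted p from 0.756 to 0.0127) and no other, and with it 3947 genes were lower.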
